A study of Mus musculus with 16 samples.

Results

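The genes described here encode surface proteins through which an activated macrophage stimulates, restrains or holds on to a T cell: the costimulatory molecules Cd40, Cd80, Cd86, Cd83 and Icosl, the checkpoint ligands Cd274 (PD-L1) and Pdcd1lg2 (PD-L2), and the adhesion and activation molecules Icam1, Cd44 and Cd69. They were chosen by name, and the region of each gene with the most reads was used. Of the 10 listed genes, 9 had a region among the 14925 genes in the tables, and Pdcd1lg2 was not analysed here. The data were CPEB4 RNA immunoprecipitations (RIP) and their lysate RNA (Input) from mouse bone marrow-derived macrophages (BMDMs), grown from marrow in medium with M-CSF and labelled with the mixed background C57BL/6J 129. The samples were WT (numbered 76) or from Cpeb4-/- mice (numbered 73, called KO), in which the gene is lost from every cell of the animal. Cells of each genotype were left untreated or given 10 ng/ml LPS, a bacterial cell wall component, for 9 h. Whether these numbers stand for an animal, a culture or a preparation was not given in the sources used here. What they stand for cannot be told apart from genotype. All RIPs used the same anti-CPEB4 antibody, and the KO RIP serves as the control for recovery by the antibody and the beads without the antigen. Each combination of genotype, treatment and assay was 1 library, made from 2 lanes that the authors summed, and rRNA depletion was listed for the Inputs only. The ages of the mice were not given in the sources used here.

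Antigen recognition alone activates a T cell poorly, and the second signal comes from ligands such as CD80 and CD86, which bind CD28 or the inhibitory receptor CTLA-4. PD-L1 binds PD-1 and dampens the T cell, whereas CD40 receives a signal back from the T cell and ICAM-1 holds the contact by binding LFA-1. Macrophages carry few of these molecules at rest and acquire many of them after sensing LPS through TLR4. CPEB4 binds the 3′-UTRs of mRNAs at cytoplasmic polyadenylation elements (CPEs) and controls their poly(A) tail and translation, and AU-rich elements in the same 3′-UTRs are bound by other proteins that stabilise or destabilise the mRNA.

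The 8 libraries held from 467696 to 2492300 reads over 3′-UTRs of named genes, the KO RIPs being the shallowest with 467696 (untreated) and 871482 (LPS). Levels are reads per 1000000 of these 3′-UTR reads (CPM). A ratio is the log2 ratio of such levels after adding 1 read to each library, with a 95% interval from the read counts that covers counting error only. With 1 library per group no p-value can be given, and no difference below has a replicate check. A gene was said to rise, fall or be enriched or depleted where the ratio was at least 2-fold and the pair of libraries held at least 20 reads. Cpeb4 itself had 130 and 136 CPM in the WT Inputs and 52.0 and 52.6 CPM in the KO Inputs, so reads over its 3′-UTR remained in the KO libraries. In the RIPs it had 836 and 770 CPM in WT and 257 and 367 CPM in KO, and its log2 ratio of RIP over Input was 2.67 (untreated) and 2.50 (LPS) in WT and 2.29 and 2.79 in KO, so that Cpeb4 mRNA was enriched in the KO RIPs too. Whether the counted region lies inside the deleted part was not given in the sources used here. All 10 macrophage markers (such as Csf1r, Adgre1 and Lyz2) had reads in every Input, with a summed level of 2563 to 3669 CPM, while the B cell markers summed to at most 0.754 CPM and the neutrophil markers to at most 0.527 CPM in the Inputs.

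The 3′-UTRs of these genes differed widely in their CPEs. On the sense strand of GRCm38.p6, the NCBI assembly of the mm10 build that the authors used, the searched CPE forms were TTTTAT and TTTTAAT, also TTTTAAAT and TTTTACT, also TTTTCAT and TTTTAAGT, and TTTTGT, none of which contains another, with overlapping matches counted. Cd44 stood out with 23 sites in 2992 bases, against a median of 8 in the 1435 regions of like length (within 1.2 times), and 1.74% of those regions held as many. Of the Cd44 sites, 15 were TTTTGT, a number reached by 0.139% of the same regions. Cd274 had 8 sites in 2683 bases (median 7 of 1608 regions), Cd86 had 5 in 1470 bases, Cd83 had 4 in 1445 bases and Icosl had 4 in 1622 bases, each with a median of 4 among regions of like length. Cd40 had 3 sites in 2035 bases, below the median of 5. Icam1 (851 bases) and Cd69 (937 bases) had 1 site each, a TTTTGT in both, and Cd80 (532 bases) had none. At least 1 site was found in 64.0% to 98.2% of the regions of like length, so the presence of a site sets no member apart. The authors' deposited CPE prediction was positive for Cd44, Cd274, Cd86, Cd83 and Icosl, or 5 of 9 genes, against 31.7% of all 14925 genes and 37.6% of the 7049 genes with over 10 reads in the WT LPS Input. These shares were not matched for length, and the 5 genes had regions of 1445 to 2992 bases.

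The CPE nearest the 3′ end of the region is shown for the genes that the RIP results turn on, with the site in capitals and the coordinates of the 30-base window. In Cd44 a pair of overlapping TTTTGT sites ended 68 bases before the end of the region, and in Cd274 a TTTTAT ended 8 bases before it.
Cd44, chr2:102811197-102811226, minus strand: ttggtgtTTTTGTTTTGTttgtttgatttt
Cd274, chr19:29388066-29388095, plus strand: ttaatttaataaatatTTTTATttattaaa
Cd86, chr16:36604318-36604347, minus strand: gctcaacaggtaTTTTATgatctccttgtt
Cd83, chr13:43803001-43803030, plus strand: ttcccaaagagaTTTTGTcccactaatggt
Cd69, chr6:129267721-129267750, minus strand: tttgcctcattaTTTTGTcaattgttctcc
Icam1, chr9:21028586-21028615, plus strand: ctccccacctacTTTTGTtcccaatgtcag

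The AU-rich pentamer ATTTA had another distribution over the genes. Cd274 held 11 copies (median 4 in regions of like length, 6.90% with as many), Cd40 held 7 (median 3, 14.6% with as many) and Icam1 held 4 (median 1, 9.33% with as many). Cd44 held 6 (median 5), Cd69 and Cd83 held 2 each, Icosl held 1, and Cd80 and Cd86 held none. The densest 30-base windows of Cd274 and Icam1, the genes with the most copies for their length, are shown with ATTTA in capitals.
Cd274, chr19:29388065-29388094, plus strand: attaATTTAataaatatttttATTTAttaa
Icam1, chr9:21028331-21028360, plus strand: ttaATTTAgagttttaccagctATTTAttg

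**Figure D1:**
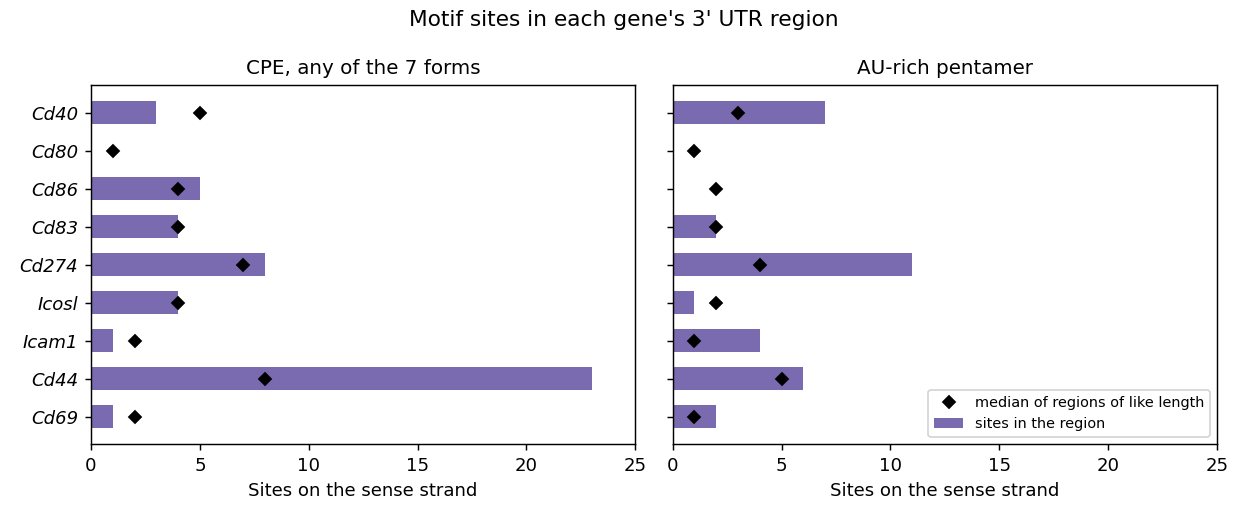
Number of CPE sites (left, any of the 7 forms) and of AU-rich pentamers (right) on the sense strand of each gene's 3′-UTR region (bars), with the median of all regions of like length (diamonds). Cd44 with 23 CPEs lies furthest above its median of 8, and Cd274 with 11 pentamers lies furthest above its median of 4.

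The question of the LPS comparison was how the mRNA of these molecules stood after 9 h of stimulation in each genotype. In the Inputs, 6 of the 9 genes rose with LPS in WT and the same 6 rose in KO: Cd40, Cd86, Cd274, Icosl, Icam1 and Cd69. Cd83 fell in WT, Cd44 stayed within 2-fold in both genotypes, and Cd80 was too low to be assessed. Among all genes with at least 20 reads in the pair, 15% of 6872 rose and 15.3% fell in WT, and 13.7% of 6996 rose and 19.6% fell in KO. The median log2 ratio of the 8 assessed genes was 2.37 in WT and 2.21 in KO, against -0.06 and -0.16 over all genes. Cd40, Cd86 and Cd69 reached 20 reads only through the LPS library, so that for these 3 genes being assessed and being higher with LPS were not independent.

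**Figure D2:**
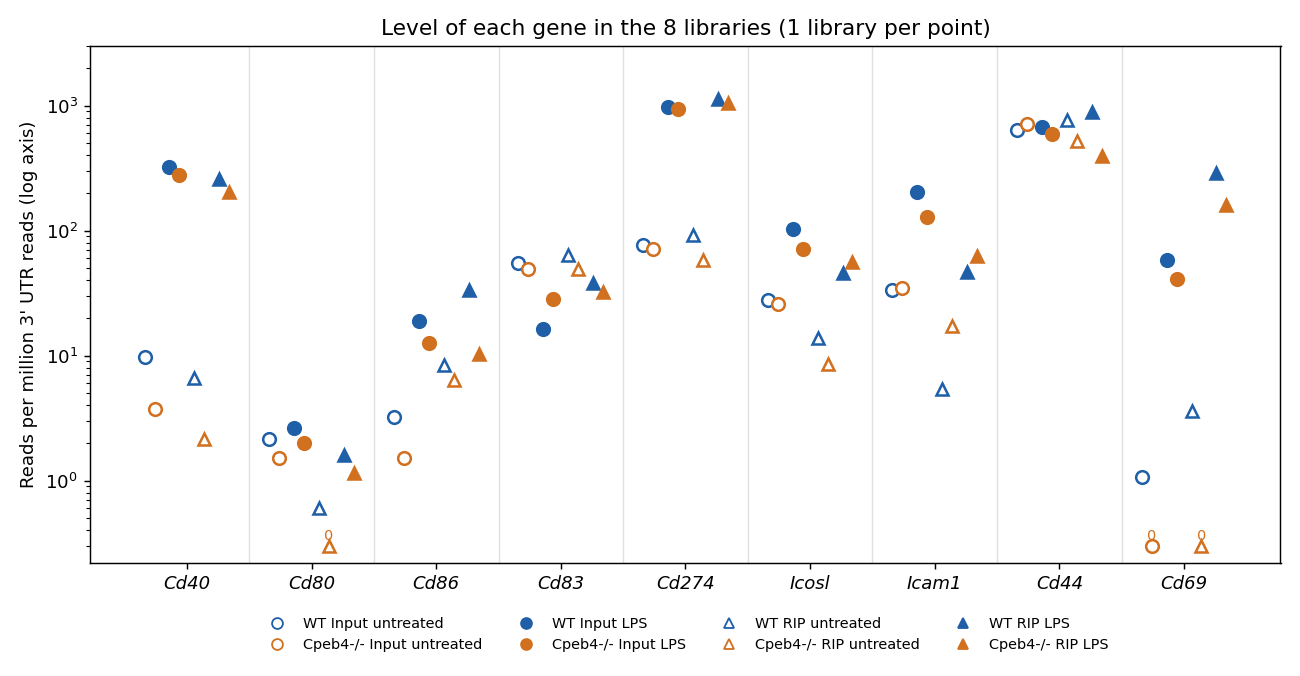
Level of each gene in the 8 libraries, in CPM on a log axis (circles Input, triangles RIP, open untreated, filled LPS, blue WT, orange Cpeb4-/-). Points marked 0 had no reads and are drawn at the foot of the axis; Cd44 varied least, from 398 to 891 CPM.

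Among the costimulatory molecules, Cd40, the receptor for the T-cell ligand CD154, had 9.69 CPM (9 reads) in the untreated WT Input and 321 CPM (610 reads) with LPS. In KO it had 3.77 CPM (5 reads) and 278 CPM (418 reads). The log2 ratio was 4.90 (95% interval 4.0 to 5.80) in WT and 5.95 (4.78 to 7.11) in KO, and 0.713% and 0.429% of all assessed genes had a higher one. Nearly all of these reads lay in the first 741 bases of the 3′-UTR, the length of a shorter annotated isoform: 93.6% (exact 95% interval 91.4 to 95.4) of the reads in the WT LPS Input and 96.9% (94.7 to 98.3) in the KO LPS Input. The level per kilobase over the full 2035 bases therefore understates that of the part covered by reads, and of the 3 CPEs of Cd40 1 lay in those 741 bases. This division of the region was examined after the values had been seen.

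Cd86, a ligand of CD28 and CTLA-4, had 3.23 CPM (3 reads) in the untreated WT Input and 19.0 CPM (36 reads) with LPS, and 1.51 CPM (2 reads) and 12.6 CPM (19 reads) in KO. From the reads alone the ratio was 5.88-fold in WT (exact 95% counting interval 1.86 to 29.8) and 8.38-fold in KO (2.02 to 74.2), so the rise was seen in both but its size was poorly determined. Cd80, the other ligand of the same receptors, had from 2 to 5 reads in each Input, too few for a call. Icosl, the ligand of ICOS, went from 28.0 to 102 CPM in WT (log2 ratio 1.82, 1.24 to 2.40) and from 25.6 to 71.9 CPM in KO (1.46, 0.91 to 2.01). Its levels with LPS lay above both untreated levels in either genotype.

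Cd83, a surface protein of mature antigen-presenting cells, was the exception. It fell from 54.9 CPM (51 reads) to 16.3 CPM (31 reads) in the WT Inputs, a log2 ratio of -1.73 (-2.37 to -1.10), and 5.66% of assessed genes had a lower one. In the KO Inputs it had 49.0 CPM (65 reads) and 28.6 CPM (43 reads), a ratio of -0.77 (-1.32 to -0.21) that did not reach 2-fold. The KO minus WT difference of the LPS change was 0.97 (0.12 to 1.81) for Cd83 and passed 2-fold, at 1.03 to 1.07, under the 3 other scalings tried. Those scalings raised this difference for all genes, by a median of 0.07 (library totals and TMM) and 0.11 (median-of-ratios).

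Cd274, which encodes PD-L1, was the most abundant of these mRNAs after LPS. It had 76.4 CPM in the untreated WT Input and 972 CPM with LPS, and 71.6 and 941 CPM in KO. The log2 ratio was 3.65 (3.31 to 3.99) in WT and 3.70 (3.40 to 4.0) in KO, a difference of 0.05 (-0.40 to 0.50) between the genotypes.

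Icam1, the adhesion ligand of LFA-1, went from 33.4 to 203 CPM in WT (log2 ratio 2.56, 2.04 to 3.08) and from 34.7 to 128 CPM in KO (1.87, 1.41 to 2.32). The KO minus WT difference of this change was -0.70, with an interval of -1.39 to 0.00. Over 491 bases the Icam1 region overlaps an annotated antisense gene, Gm47079, and whether the counting used strand was not given in the sources used here. Cd69, an early activation antigen that retains lymphocytes in tissue, had 1.08 CPM (1 read) in the untreated WT Input, 58.0 CPM (110 reads) with LPS, no read in the untreated KO Input and 41.3 CPM (62 reads) with LPS. The WT ratio from the reads was 53.9-fold (exact 95% counting interval 9.47 to 2147), and the KO level was at least 18.2-fold higher than a floor of 3 reads in the untreated library. Cd44, the hyaluronan receptor, was high throughout, with 636 and 679 CPM in the WT Inputs and 712 and 596 CPM in the KO Inputs. Its change was 0.09 (-0.05 to 0.23) in WT and -0.26 (-0.39 to -0.13) in KO.

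**Figure D3:**
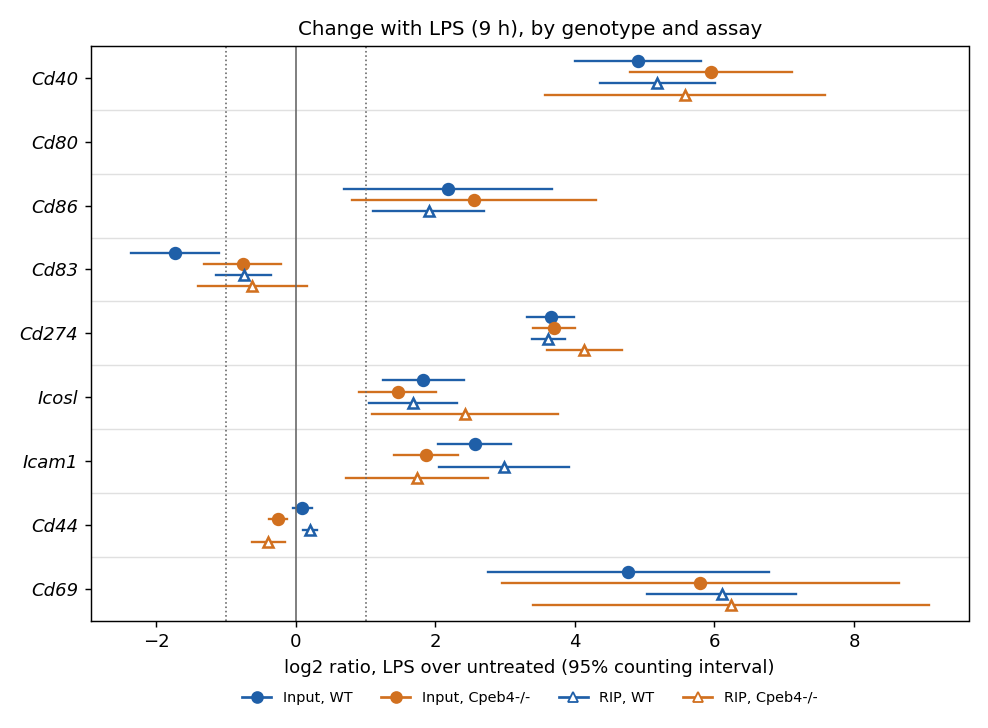
Change with LPS as the log2 ratio of LPS over untreated, with 95% counting intervals, for Input (filled circles) and RIP (open triangles) of WT (blue) and Cpeb4-/- (orange) BMDMs; dotted lines mark 2-fold, and pairs with under 20 reads are not drawn. The Cpeb4-/- points of Cd69 rest on no untreated read and depend on the read added. In the Inputs 6 genes lie to the right of 2-fold, Cd44 lies near 0 and Cd83 lies to the left of 0.

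Per kilobase of region, the order of the Input levels changed with LPS. Untreated, Cd44 led in both genotypes (213 and 238 CPM per kilobase), followed by Icam1 (39.2 and 40.8), Cd83 (38.0 and 33.9) and Cd274 (28.5 and 26.7), and the 95% counting intervals (Wilson) of the last 3 overlapped from one gene to the next. Icosl followed (17.3 and 15.8), overlapping with Cd274, and Cd40, Cd80, Cd86 and Cd69 lay at 4.76 or below in WT and at 2.84 or below in KO, each with an interval overlapping the next. With LPS, Cd274 led (362 in WT and 351 in KO). In WT, Icam1 (238) and Cd44 (227) came next with overlapping intervals, then Cd40 (158), then Icosl (63.0) and Cd69 (61.9) with overlapping intervals, and Cd86 (12.9), Cd83 (11.3) and Cd80 (4.95) came last with overlapping intervals. In KO the order was Cd44 (199), Icam1 (151), Cd40 (137), Icosl (44.3), Cd69 (44.0), Cd83 (19.8), Cd86 (8.60) and Cd80 (3.75), where Icam1 and Cd40, Icosl and Cd69, and Cd86 and Cd80 had overlapping intervals. These intervals cover counting error only.

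Markers of other cells moved with LPS as well. Of 8 dendritic cell markers 7 had a region, and their summed level went from 4.31 to 227 CPM in the WT Inputs and from 12.8 to 182 CPM in the KO Inputs. Fscn1 had 0 reads in both untreated Inputs and 415 (WT) and 265 (KO) with LPS, while Flt3, Zbtb46, Ccr7, Xcr1 and Clec9a had at most 1 read in every Input. Itgax, the remaining marker, went from 2 to 13 reads in WT and from 15 to 7 reads (11.3 to 4.66 CPM) in KO. The 3 fibroblast markers with a region summed to 0 CPM in both untreated Inputs and to 35.8 (WT) and 43.3 CPM (KO) with LPS, nearly all of it Pdgfrb. The summed T cell markers fell from 136 to 3.69 CPM (WT) and from 113 to 6.66 CPM (KO), and nearly all of the untreated sum was Cd28. Of the other T cell markers with a region, Cd3e and Cd3d had 0 reads in all Inputs. Cd4 had at most 9, Cd8a at most 3 and Lck at most 2 reads in any Input. The part of these genes' cells in the LPS changes was not tested, and in a bulk lysate fewer cells of a type and less RNA per cell cannot be told apart.

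The comparison of the genotypes' Inputs asked whether mRNA levels differed without CPEB4. None of the 5 genes assessed untreated and none of the 8 assessed with LPS differed by 2-fold. Over all genes, 1.27% of 6448 were at least 2-fold higher in WT and 2.75% lower when untreated, and 2% of 6995 were higher and 1.6% lower with LPS. With LPS the largest WT over KO ratio among the members was that of Icam1, 0.66 (0.41 to 0.90), followed by Cd86 with 0.55 (-0.23 to 1.3), Icosl with 0.50 (0.16 to 0.84) and Cd69 with 0.48 (0.03 to 0.93). Cd40 was at 0.21 (0.03 to 0.39), Cd44 at 0.19 (0.07 to 0.31) and Cd274 at 0.05 (-0.05 to 0.15). Cd83 was the only assessed gene of the list with a ratio below 0, at -0.80 (-1.45 to -0.14). Untreated, the 5 ratios lay between -0.16 (Cd44) and 0.17 (Cd83).

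RIP over Input within a genotype asked which of these mRNAs were recovered by the anti-CPEB4 antibody. Cd69 was the most enriched of the members with LPS, in both genotypes. It had 288 CPM (718 reads) in the WT LPS RIP against 58.0 CPM in its Input, a log2 ratio of 2.30 (2.01 to 2.59), and 159 CPM (139 reads) in the KO LPS RIP against 41.3 CPM, a ratio of 1.94 (1.51 to 2.37). Only 4.84% of assessed genes in WT and 3.11% in KO had a higher ratio. The enrichment of Cd69 was thus also present in the KO RIP, and its 3′-UTR held the single TTTTGT shown above. It had no CPE in the authors' deposited prediction, whose motif counts did not include this TTTTGT. The paper also describes a prediction adapted to TTTTGT, which was not used here. The authors' MACS peak score over the Cd69 3′-UTR was 2063 in the WT LPS RIP and 134.5 in the KO LPS RIP. The scores were not adjusted here for depth, and the 2 RIPs held 2492300 (WT) and 871482 (KO) 3′-UTR reads. Cd83 was the other enriched member, with 38.1 CPM in the WT LPS RIP against 16.3 CPM in the Input (1.19, 0.61 to 1.77). In the KO LPS RIP Cd83 had 32.1 CPM against 28.6 CPM (0.18, -0.49 to 0.86). Over all genes, 23.8% of 7638 were enriched and 26.3% depleted in the WT LPS RIP, and 14.3% of 6472 were enriched and 12.2% depleted in the KO LPS RIP, so enrichment of 2 of 8 members in WT and of 1 of 8 in KO was near these shares.

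Icam1 and Icosl were depleted. Icam1 had 5.40 CPM (9 reads) in the untreated WT RIP against 33.4 CPM in its Input, a log2 ratio of -2.52 (-3.54 to -1.5), and 46.9 CPM (117 reads) against 203 CPM with LPS, a ratio of -2.10 (-2.40 to -1.81). Only 1.16% of assessed genes in the untreated WT pair had a lower ratio. Icam1 reached the read minimum in that pair only through the Input, so being assessed and being depleted were not independent. In KO it was -0.88 (-1.91 to 0.15) untreated and -1.01 (-1.44 to -0.58) with LPS. Icosl was at -1.01 (-1.81 to -0.22) untreated and -1.16 (-1.49 to -0.82) with LPS in WT, and at -1.30 (-2.66 to 0.05) and -0.34 (-0.82 to 0.14) in KO, where the untreated RIP held 4 reads. The WT values of Icosl did not reach 2-fold with TMM scaling (-0.94 untreated and with LPS) or library totals (-0.95 and -0.64). Untreated, 25.5% of 7013 genes were enriched and 21.1% depleted in the WT RIP, with 0 and 2 of the 6 assessed members. In the untreated KO RIP 14.8% of 6233 genes were enriched and 12.5% depleted, with 0 and 1 of the 5 assessed members. The depleted member, Icosl, reached the read minimum there only through the Input, so the same limit applies to it.

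The other members were within 2-fold between Input and RIP wherever the pair held at least 20 reads. Cd80 was below this minimum in every pair, Cd86 in both untreated pairs and Cd40 in the untreated KO pair. Untreated Cd86 in WT had 14 reads in the RIP and 3 in the Input. Cd274 was at 0.25 (-0.15 to 0.66) and 0.22 (0.14 to 0.31) in the untreated and LPS WT pairs and at -0.27 (-0.88 to 0.33) and 0.16 (0.04 to 0.28) in the KO pairs. Cd40 was at -0.30 (-0.46 to -0.14) with LPS in WT and -0.45 (-0.70 to -0.20) in KO, a WT value that turned to 0.21 with the authors' library totals. Cd44 was above 0 in both WT pairs, at 0.28 (0.14 to 0.42) untreated and 0.39 (0.29 to 0.49) with LPS, and below 0 in both KO pairs, at -0.44 (-0.64 to -0.24) and -0.58 (-0.76 to -0.40). Cd86 with LPS was at 0.79 (0.23 to 1.35) in WT and -0.21 (-1.31 to 0.88) in KO. With LPS, 4 of the 8 assessed members had a MACS peak in WT, where 29.8% of all assessed genes had one: Cd69 (2063), Cd44 (740), Cd274 (380) and Cd83 (99.6). Cd69 was the only member with a peak in KO, where 2.56% of genes had one, and none had a peak untreated, where 14.4% of 7013 genes had one in WT (0 of 6 members) and 2.23% of 6233 in KO (0 of 5). The KO RIPs were the shallower libraries, and the peaks were not adjusted here for depth.

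**Figure D4:**
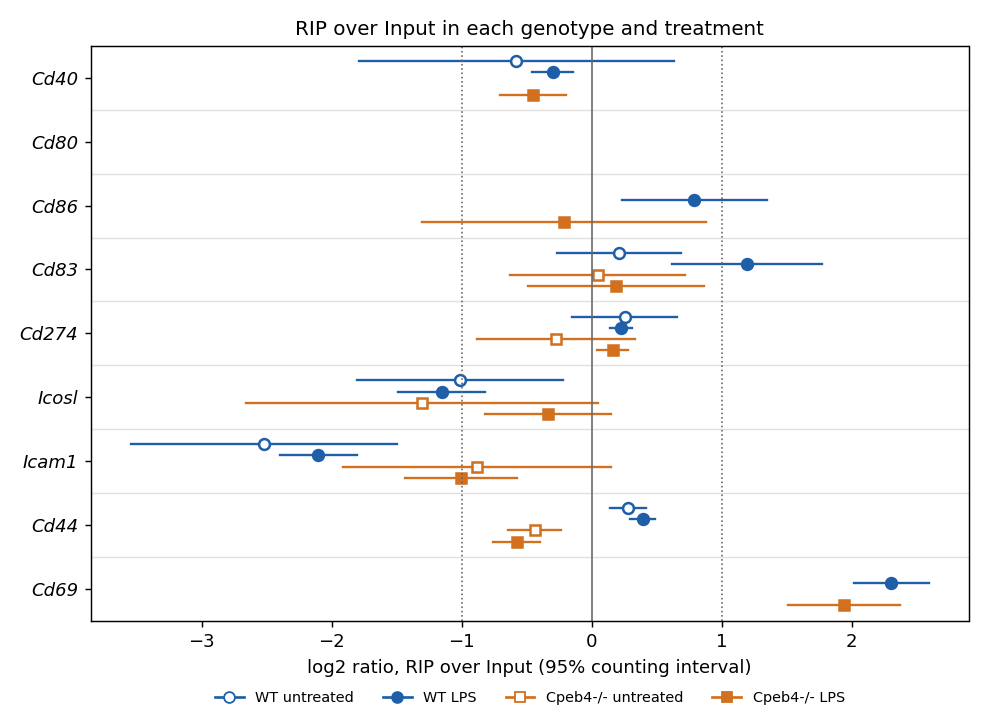
RIP over Input as a log2 ratio with 95% counting intervals for WT (blue circles) and Cpeb4-/- (orange squares), open untreated and filled LPS; dotted lines mark 2-fold, and pairs with under 20 reads are not drawn. Cd69 lies to the right of 2-fold in both genotypes, Icam1 lies furthest left in WT, and Cd44 lies on opposite sides of 0 in WT and Cpeb4-/-.

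WT over KO in the RIPs compares the recovery with and without the antigen, the comparison the KO samples were made for. With LPS, Cd86 and Cd44 were at least 2-fold higher in the WT RIP, 2 of the 8 assessed members, and none was lower, against 10.2% higher and 13.8% lower among 7072 genes. Cd44 had 891 CPM (2220 reads) in the WT RIP and 398 CPM (347 reads) in the KO RIP, a log2 ratio of 1.16 (1.0 to 1.32). Its Inputs differed by 0.19, so the ratio corrected for Input was 0.97 (0.76 to 1.17), just under 2-fold, and it was 1.14 to 2.17 under the 3 other scalings. Cd86 had 33.3 CPM (83 reads) and 10.3 CPM (9 reads), a ratio of 1.55 (0.61 to 2.50), and its Input-corrected ratio was 1.0 (-0.23 to 2.23), an interval that included 0. Cd86 reached the read minimum only through the WT RIP, so being assessed and being higher in WT were not independent for this gene. Of assessed genes, 2.45% had a higher WT over KO RIP ratio than Cd86 and 7.11% a higher one than Cd44. Just below 2-fold was Cd69, with 288 against 159 CPM (0.84, 0.58 to 1.11) and an Input-corrected ratio of 0.36 (-0.15 to 0.88).

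The remaining assessed members were within 2-fold between the LPS RIPs of the genotypes. Cd274 had 1135 CPM in WT and 1051 CPM in KO (0.11, 0.00 to 0.22) and 0.06 (-0.08 to 0.21) after correction for Input, with 8 CPEs in its 3′-UTR. Cd40 was at 0.35 (0.12 to 0.59), Cd83 at 0.21 (-0.39 to 0.81), Icosl at -0.31 (-0.79 to 0.16) and Icam1 at -0.44 (-0.90 to 0.02). Correction for Input moved Cd83 to 1.01 (0.12 to 1.90) and Icam1 to -1.10 (-1.62 to -0.57). With Cd86, 2 of 8 members were then at least 2-fold higher and 1 was lower, against 11.3% and 17.8% of 6307 genes. The lower call, that of Icam1, was lost under the 3 other scalings, with -0.83 (TMM), -0.93 (median-of-ratios) and 0.10 (library totals), the last with the direction turned. The authors' library totals, of which the 3′-UTR reads made up 70.7% in the WT LPS RIP and 32.1% in the KO LPS RIP, raised the WT over KO RIP ratio of all genes by a median of 1.14 with LPS and 0.84 untreated. On that scale Icam1 and Icosl turned to 0.70 and 0.83 in the LPS RIPs, and relative to all genes they remained below the median.

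Untreated, the RIPs held fewer reads and none of the 4 assessed members differed by 2-fold, against 9.85% higher and 11% lower among 6581 genes. All 4 were above 0. Cd274 had 91.8 CPM (153 reads) in WT and 57.7 CPM (27 reads) in KO, a ratio of 0.63 (0.05 to 1.21). Cd44 had 771 and 524 CPM (0.55, 0.36 to 0.75), Icosl was at 0.43 (-0.96 to 1.82) with 23 and 4 reads, and Cd83 was at 0.34 (-0.30 to 0.98). Corrected for Input, the 4 ratios were 0.53 (Cd274), 0.71 (Cd44), 0.29 (Icosl) and 0.17 (Cd83), and none of 4 members reached 2-fold where 14.5% of 5736 genes were higher and 14.2% lower. Icam1 had 5.40 CPM (9 reads) in WT and 17.1 CPM (8 reads) in KO, a ratio from the reads of 0.32-fold (exact 95% counting interval 0.11 to 0.94), with 17 reads in the pair and hence below the minimum. The WT over KO RIP ratio of Cd44 was 0.60 (0.35 to 0.86) larger with LPS than untreated, a comparison added after the data had been seen. None of the 4 assessed members reached 2-fold in it, against 5.26% of 6121 genes above and 5.23% below.

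**Figure D5:**
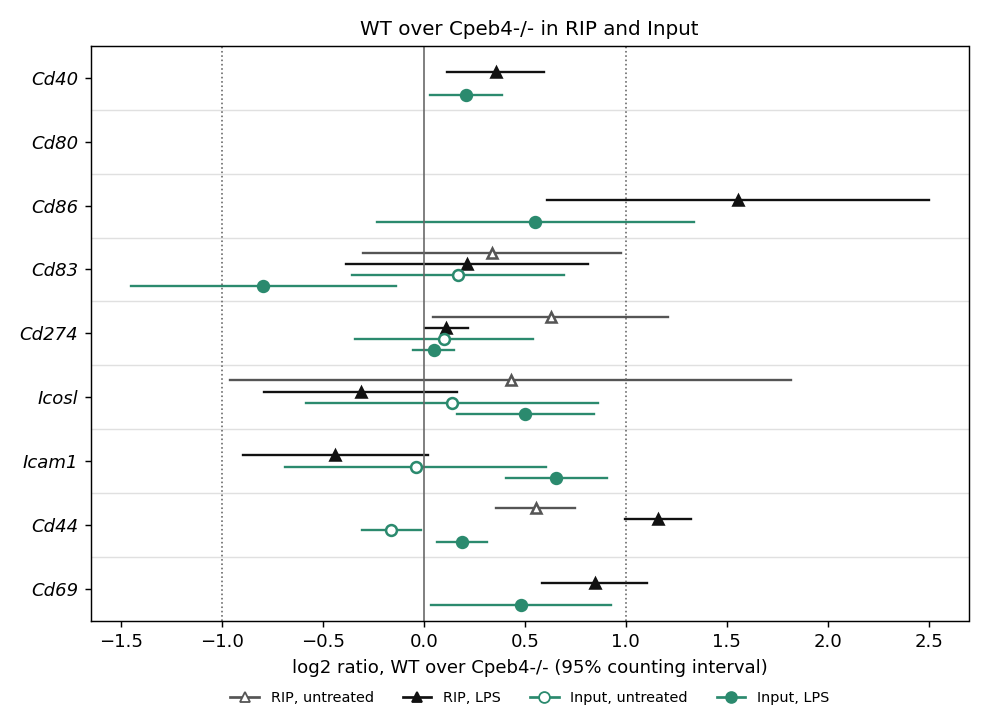
WT over Cpeb4-/- as a log2 ratio with 95% counting intervals in the RIPs (triangles) and the Inputs (green circles), open untreated and filled LPS; dotted lines mark 2-fold, and pairs with under 20 reads are not drawn. With LPS, Cd86 and Cd44 lie to the right of 2-fold in the RIP and not in the Input.

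Along the Cd44 3′-UTR the RIP reads lay further from the coding region than the Input reads. Of the reads of the 2992-base region, 36.2% (exact 95% interval 32.3 to 40.2) of the untreated and 36.2% (33.5 to 38.8) of the LPS WT Input reads lay beyond the 1603 bases of a shorter annotated isoform. In the WT RIPs the share was 46.3% (43.5 to 49.1) and 45.6% (43.5 to 47.7), intervals that did not overlap those of the Inputs. In KO it was 35.2% (32.1 to 38.3) and 32.5% (29.5 to 35.7) in the Inputs and 40.4% (34.2 to 46.8) and 43.2% (37.9 to 48.6) in the RIPs, so that a larger distal share of RIP reads was present with LPS in KO as well. Of the CPEs of all 7 forms, 10 lay in the distal part of 1389 bases, or 7.20 per kilobase, and 13 in the proximal part, or 8.11 per kilobase. By form, the distal part held 9 of the 15 TTTTGT sites, or 6.48 per kilobase, against 6 in the proximal part, or 3.74 per kilobase. TTTTAT was found 1 time in the distal and 5 times in the proximal part. This division was examined after the values had been seen.

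The change with LPS within the RIPs was as follows. The same 6 genes rose in the WT RIPs, and 5 of them rose in the KO RIPs, where Cd86 had 3 and 9 reads and could not be assessed. Of these genes, Cd40, Cd86, Cd69 and Icam1 in WT and Cd40, Cd69, Icam1 and Icosl in KO reached 20 reads only through the LPS RIP, so that in the KO RIPs the rise of Cd274 alone was free of this selection. Over all genes 12.3% of 7661 rose and 19.2% fell in the WT RIPs, and 14.7% of 5616 rose and 19.6% fell in the KO RIPs. Cd69 went from 3.60 CPM (6 reads) to 288 CPM in the WT RIPs, a ratio of 6.10 (5.03 to 7.18), and from no read to 139 reads in the KO RIPs, at least 24.9-fold above a floor of 3 reads. Cd40 rose by 5.18 (4.36 to 6.00) in WT and from 1 read to 177 reads in KO. Cd274 rose by 3.62 (3.38 to 3.85) in WT and 4.14 (3.59 to 4.68) in KO. Cd44 was at 0.21 (0.11 to 0.31) in WT and -0.40 (-0.63 to -0.16) in KO, and Cd83 at -0.75 (-1.15 to -0.35) and -0.62 (-1.41 to 0.16). The genotypes' LPS changes in the Inputs differed by 2-fold for Cd40, at 1.04 (-0.43 to 2.51), and Cd69, at 1.03 (-2.46 to 4.52), both with intervals that included 0 and with 5 and 0 reads in the untreated KO Input, so that the value of Cd69 depends on the read added. Such a difference was found for 3.98% (KO above WT) and 5.93% (KO below WT) of 6639 genes.

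The gene of the list with the most reads was Cd44. Over the 8 libraries, the genes whose centred log2 CPM profile was closest to it were Calu, at a distance of 0.315, Hn1l at 0.355 and Ssr1 at 0.422, against a median distance of 1.81 over the 1082 genes compared.

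A further 44 costimulatory, checkpoint and adhesion genes were examined in the same way, of which 39 had a region. With LPS, 13 of the 29 assessed rose and 3 fell in the WT Inputs, and 12 of 29 rose and 5 fell in the KO Inputs, with medians of 0.53 and 0.20, against 15% higher and 15.3% lower (WT) and 13.7% and 19.6% (KO) of all genes. Traf1, a signalling adaptor of TNF receptors, went from 0 to 172 reads in WT and from 4 to 95 reads in KO. Pvr, a ligand of TIGIT and CD226, rose in WT from 9.69 to 73.8 CPM (2.79, 1.86 to 3.71) and had a log2 ratio of 1.29 in KO (20 and 57 reads). Nectin2, which binds the same receptors, rose in KO from 15.1 to 81.9 CPM (2.38, 1.71 to 3.05) and had a ratio of 1.82 in WT (15 and 114 reads). Traf1 in both genotypes, and Pvr and Nectin2 in WT, reached 20 reads only through the LPS Input. Itgal, the alpha chain of LFA-1, rose in KO from 29.4 to 275 CPM (3.19, 2.72 to 3.66) and had a ratio of 2.76 in WT (49 and 691 reads). Cd84, a homotypic receptor of the SLAM family, fell from 410 to 92.2 CPM in WT (-2.15, -2.41 to -1.89) and from 428 to 92.5 CPM in KO (-2.20, -2.47 to -1.93). Vsir, the inhibitory ligand VISTA, fell in WT from 1779 to 874 CPM (-1.02, -1.12 to -0.93) and had a ratio of -0.71 in KO.

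RIP over Input with LPS showed at least 2-fold enrichment for 5 and depletion by at least 2-fold for 10 of the 30 further genes assessed in WT, and for 3 and 4 of 28 in KO, against 23.8% and 26.3% (WT) and 14.3% and 12.2% (KO) of all genes. In the RIPs of these further genes, WT over KO was at least 2-fold higher for 4 and lower for 3 of 24 assessed untreated, and higher for 3 and lower for 5 of 30 with LPS, with medians of -0.12 and 0.12. The shares over all genes were 9.85% and 11% untreated and 10.2% and 13.8% with LPS. Cd82, a tetraspanin, had 61.2 CPM (102 reads) in the untreated WT RIP and 8.55 CPM (4 reads) in KO (2.53, 1.24 to 3.83). With LPS it had 124 and 50.5 CPM (1.27, 0.82 to 1.72). Cd48, a SLAM family ligand, was at 1.72 (0.60 to 2.83) untreated and 1.58 (0.84 to 2.33) with LPS. Untreated Cd82, and Cd48 in both comparisons, reached the read minimum only through the WT RIP. Itga4, the alpha chain of VLA-4, had 881 CPM in the WT and 390 CPM in the KO LPS RIP (1.17, 1.01 to 1.3), a ratio close to that of Cd44. Itgb2, the beta chain of LFA-1, was lower in the WT RIP untreated (-1.23, -1.83 to -0.64) and with LPS (-1.70, -2.25 to -1.16), and Vsir was lower with LPS (-1.59, -1.76 to -1.42). In the Inputs none of the 23 (untreated) or 29 (LPS) assessed genes of this list differed by 2-fold between the genotypes.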

How the data were processed

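RIP-seq libraries (100-base single-end reads) of BMDMs were aligned by the authors to mm10 with Bowtie2 2.2.2, duplicates were removed, and reads over Ensembl 3′-UTR regions were deposited as raw counts, identical in the 4 tables. The deposited RPKM divides each count by the region's length (other deposited unit, in bases) and a library total larger than the 3′-UTR sum; here it served only to recover that total. The deposited score is the highest MACS 1.4.2 peak score over a region. The authors' log2 fold changes and p-values of RIP against Input were not used. Rows without a gene symbol (0.902% to 1.04% of reads) were left out of the 3′-UTR sums. The members and lists were chosen with earlier results of these data known. Named from the further lists were genes at least 2-fold different with at least 50 reads in the pair, the 3 largest in each direction at most. For Cd44, the most similar genes were sought among those with at least 50 reads in every library. No ratio is given where both libraries held 3 or fewer reads. Duplicate removal without molecular identifiers caps the counts of abundant regions, and intervals and floors cover counting error only. Reads of overlapping isoforms were counted in each region. Alternatives were other scalings (library totals, TMM of edgeR 4.0.16, median-of-ratios of DESeq2 1.42.0), 0.5 reads added, no read minimum, the longest region, and the study's cut-offs on reads. Those cut-offs were applied to ratios scaled to the 3′-UTR sums rather than to RPKM, and the study's peak-score criterion was left out. The fold call was tested on simulated data. Sequences were read with pysam 0.24.0, and region ends were checked against GENCODE annotation of the same build.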

Additional observations from a re-analysis of the deposited data

Results flagged for a closer look

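In 6 comparisons the WT and the KO log2 ratios lay on opposite sides of 0, with 1 library each, so that none of these differences was tested. For Cd44 the KO minus WT difference of the LPS change was -0.35 in the Inputs (0.09 in WT, -0.26 in KO) and -0.60 in the RIPs (0.21 in WT, -0.40 in KO). The interval of the WT Input change itself included 0 (-0.05 to 0.23). The KO Input change was -0.05 with TMM scaling and -0.12 with library totals. For Cd44 the KO minus WT difference of RIP over Input was -0.71 untreated (0.28 in WT, -0.44 in KO) and -0.97 with LPS (0.39 in WT, -0.58 in KO). For Cd274 the same difference untreated was -0.53 (0.25 in WT, -0.27 in KO). For Cd86 with LPS it was -1.0 (0.79 in WT, -0.21 in KO). The counting intervals of the Cd274 and Cd86 differences included 0, and those of Cd44 did not.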

How the results depend on the processing

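No paired analysis was possible because each group had 1 library, and no replicate could be left out. The counts of members higher or lower by 2-fold kept to within 1.5 times under 0.5 added reads and with the longest region. With the authors' library totals, members higher in WT over KO RIP numbered 4 of 4 untreated (0 before) and 6 of 8 with LPS (2 before), where 41.4% and 58.1% of all genes were higher; members depleted in RIP over Input numbered 1 (WT untreated), 1 (WT LPS), 4 (KO untreated) and 4 (KO LPS), against 19.5%, 16.1%, 42.1% and 38.2% of all genes; and Input-corrected members higher numbered 3 untreated and 6 with LPS, with 0 lower, against 43.3% and 56.1% higher of all genes and 1.62% lower with LPS. On that scale the Input-corrected LPS ratio of Icam1 reversed to 0.10. On it the Input-corrected ratio of all genes shifted by a median of 0.83 (untreated) and 1.2 (LPS). TMM left 1 depleted member in each WT RIP (Icam1, with 19.3% and 21.9% of all genes depleted), and TMM and median-of-ratios scaling each left 0 lower members in the Input-corrected LPS comparison (12.1% and 14.2% of all genes); TMM also brought Cd69 to 1.07 in WT over KO RIP with LPS. Without the read minimum, 1 member was lower in WT over KO RIP untreated, 2 were higher in WT over KO Input untreated, 1 was enriched in each untreated RIP and 2 were lower in the Input-corrected untreated comparison, against 24.3%, 9.28%, 21.4% (WT), 29.6% (KO) and 27.5% of all genes. The study's cut-offs were also applied to reads scaled to the 3′-UTR sums, without its peak-score criterion. These calls are therefore not those of the study's own rule, which used RPKM ratios. By them, 1 member was higher (Cd44) and 1 lower (Icam1) in WT over KO RIP untreated, against 6.76% and 9.39% of all genes. With LPS, Cd44, Cd86 and Cd69 were higher, against 10.7% of all genes. The LPS rises of Cd40, Cd86, Cd274, Icosl, Icam1 and Cd69 in both Inputs, the LPS RIP ratios of Cd44 and Cd86 and the RIP enrichment of Cd69 stayed past 2-fold under all 3 scalings. In WT over KO RIP with LPS, 12.6% (median-of-ratios), 16.5% (TMM) and 58.1% (library totals) of all genes were then at least 2-fold higher. Depth limits Cd80, Cd86 and the untreated values of Cd40 and Cd69. The LPS RIP ratio of Cd86 met the read minimum only through the WT library.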

Other observations

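Genes of antigen presentation, the signal that these molecules accompany, were examined with a list of 14, all of which had a region. With LPS, 4 of 10 assessed genes rose in the WT Inputs and 4 of 11 rose in the KO Inputs, and none fell in either, against 15% higher and 15.3% lower (WT) and 13.7% and 19.6% (KO) of all genes. H2-Ab1, the beta chain of an MHC class II molecule, rose in WT from 9.69 to 73.3 CPM (2.78, 1.85 to 3.70) and had a ratio of 1.45 in KO, with 34 reads untreated and 107 reads (71.2 CPM) with LPS. Nlrc5, the transactivator of MHC class I genes, rose from 18.3 to 72.7 CPM in WT (1.92, 1.21 to 2.63) and from 12.8 to 75.2 CPM in KO (2.48, 1.77 to 3.20), and Tap2, a subunit of the peptide transporter, rose by 1.51 (0.84 to 2.18) and 1.95 (1.27 to 2.63). H2-Ab1 in WT and Nlrc5 in both genotypes reached 20 reads only through the LPS Input. In WT over KO RIP, 0 of 6 assessed genes were higher and 1 was lower untreated, and 0 of 9 were higher and 1 was lower with LPS, against 9.85% and 11% (untreated) and 10.2% and 13.8% (LPS) of all genes.

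Among the T-cell receptors and ligands that face the molecules above, 4 of 10 had a region. Cd28, the receptor of CD80 and CD86, had 132 CPM (123 reads) in the untreated WT Input and 0 reads with LPS, and 104 CPM (138 reads) and 2.0 CPM (3 reads) in the KO Inputs. The RIPs had 201 and 2 reads in WT and 49 and 1 reads in KO.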
